A study of Homo sapiens with 101 samples.

Results

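The genes of the mitochondrial ribosomal proteins were taken as every gene whose platform symbol begins with MRPL or MRPS followed by a digit. Of 77 such symbols, MRPL20-AS1, a long non-coding RNA, and MRPL45P2, a pseudogene, were left out, which gave 75 genes of the 19777 genes that a probe set naming 1 gene measured. The 75 genes were read by 140 probe sets, and 37 genes had more than 1, in which case the probe set with the highest mean over all arrays stood for the gene. A further 4 probe sets name such a symbol together with another gene and stood for no member.

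The mitochondrial ribosome translates the few proteins encoded by mitochondrial DNA, all of them core subunits of the respiratory chain and ATP synthase. Its ribosomal RNAs come from mitochondrial DNA, whereas all of its proteins are encoded in the nucleus, made in the cytosol and imported. Part of them descend from bacterial ribosomal proteins and part are found only in mitochondria. Names with MRPL mark the large subunit, where peptide bonds form, and names with MRPS the small subunit, which reads the messenger RNA, although MRPS30 and MRPS18A were later placed in the large subunit.

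RNA came from SW620 and SW480, established human colorectal carcinoma lines derived from a lymph node metastasis and from the primary tumour of the same patient. In each line, cells carried a short hairpin RNA against CDK5, HRAS, MAP2K1, MAP2K2, MAPK3 or NGFR, and the controls were a non-target hairpin, an empty vector and non-transduced cells. Total RNA was made into biotinylated cRNA and hybridised to Affymetrix arrays in 18 groups, 15 of them with 6 arrays (replicates 1 to 6), the CDK5 knockdown of SW620 with 5 (replicates 2 to 6) and the non-transduced cells with 3 (replicates 1, 2 and 7). The question put by the design is which genes respond to the loss of each targeted gene. Each knockdown was compared with the 12 vector control arrays of its line, so the 6 comparisons within a line share their controls. Each knockdown rests on 1 hairpin code, except that the HRAS knockdown has another code in replicate 1 than in replicates 3 to 6. The titles call all arrays biological replicates, but nothing says that replicates 3 to 6 were separate cultures, so p-values measure only the spread between these arrays, which may be technical. Knockdowns of other genes were not analysed here.

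Several arrays stood apart before any comparison was made. The values were log2 expression levels, and the 90th percentile of an array was between 8.19 and 8.58 in replicates 1 and 2 and between 8.82 and 8.97 in replicates 3 to 6, so replicate 1, replicate 2, replicates 3 to 6 and replicate 7 were fitted as separate label series within each line. The GAPDH control probe sets at the 3′ end exceeded those at the 5′ end by 6.04 in replicate 2 of the SW620 MAP2K1 knockdown, by 3.82 in replicate 1 of the SW620 NGFR knockdown and by 2.95 in replicate 2 of the SW620 MAPK3 knockdown, against 0.0494 to 1.47 on the other arrays. These 3 arrays are called degraded below. On a scale where 0 is the SW480 vector controls and 1 the SW620 vector controls, replicate 1 of the SW480 knockdowns of MAP2K2, MAPK3 and MAP2K1 stood at 0.673, 0.574 and 0.422, so these 3 arrays labelled SW480 also held transcripts typical of SW620. The targeted gene was lower in 11 of 12 knockdowns, at 9.25% to 80.2% of the vector control level. NGFR itself was not called in the SW620 NGFR knockdown, where it stood at 69.8% of the vector controls with an adjusted p of 0.136 in limma. In the vector controls, NGFR in SW620 was at 4.37% of its SW480 level (limma adjusted p = 3.63e-31). The SW620 NGFR knockdown is therefore named by its hairpin, and a loss of NGFR was not shown there. The 8 epithelial and colon markers averaged 7.81 to 9.66 per array in SW620 and 7.33 to 9.01 in SW480. EPCAM, KRT8 and KRT18 had mean levels above 11 in both lines, whereas KRT20 stood at 3.93 in SW620 and 3.62 in SW480 and CDH17 at 5.00 in SW620 and 4.12 in SW480. The 4 leukocyte markers averaged 4.23 to 6.14 per array in SW620 and 4.42 to 5.47 in SW480. The 8 fibroblast and endothelial markers averaged 5.33 to 6.33 in SW620 and 4.56 to 5.97 in SW480, with LUM at 7.94 in SW620 and 3.54 in SW480 and COL1A1 at 7.42 in SW620 and 7.27 in SW480. In bulk RNA, fewer cells of a type and less RNA per cell cannot be told apart. For arrays, their number limits the precision.

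All 75 members gave a mean log2 level between 7.84 and 11.59, with a median over members of 9.72. A probe set's brightness also depends on its sequence, so these levels do not rank one transcript against another. At the ends of that range stood MRPL36, MRPL51 and MRPS15, with means of 11.59, 11.46 and 11.35, and MRPL2, MRPL44 and MRPL38, with means of 7.84, 8.11 and 8.28. The SD over all arrays was 0.54 for the median member and 0.43 for the median gene. It was widest for MRPL19, MRPL38 and MRPS12, at 1.14, 1.04 and 0.92, and narrowest for MRPS15, MRPL24 and MRPL21, at 0.23, 0.27 and 0.28. Part of this spread lay on the degraded arrays, where MRPL38 reached 4.45 and MRPS12 3.58. Without these arrays the widest SDs were those of MRPL19, MRPL38 and MRPL1, at 1.15, 0.91 and 0.87, the narrowest those of MRPL45, MRPS15 and MRPL24, at 0.18, 0.23 and 0.26, and the median member had 0.50, against 0.41 for the median gene. Of the members named for their SD over all arrays, MRPS12 sits at the decoding centre of the small subunit. MRPL19, MRPS15, MRPL24 and MRPL21 have bacterial counterparts, whereas bacteria lack MRPL38.

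The label series moved the median of the set more than any treatment did. The median over the 75 members was 9.86 to 10.23 on the 32 SW620 arrays of replicates 3 to 6, against 9.23 to 9.69 in replicate 1 and 8.97 to 9.70 in replicate 2. In SW480 it was 9.71 to 10.12 in replicates 3 to 6, against 9.16 to 9.62 in replicate 1 and 8.77 to 9.23 in replicate 2. The ranges of replicates 3 to 6 thus lay above those of replicates 1 and 2 in both lines. Not every member moved that way. Among the vector controls of both lines, MRPL2, MRPL4, MRPL38 and MRPL49 had their lowest level within replicates 3 to 6 and their highest outside them. MRPL38 in SW620 was at 7.71 to 7.90 in replicates 3 to 6, and its highest control array was at 10.33. By mean level 49 of the 75 members were above the 90th percentile of all genes. The arrays' own 90th percentile was also higher in replicates 3 to 6, at 8.82 to 8.97 against 8.19 to 8.58. Whether the members moved more than other bright genes was not tested. Within replicates 3 to 6, the median of this value in SW620 was 10.14 for the CDK5 knockdown, 10.14 for HRAS, 10.22 for MAP2K1, 10.21 for MAP2K2, 10.12 for MAPK3 and 9.92 for NGFR, against 9.98 with the non-target hairpin and 9.89 with the empty vector. In SW480 it was 9.95 for CDK5, 9.89 for HRAS, 9.87 for MAP2K1, 9.90 for MAP2K2, 9.86 for MAPK3 and 9.75 for NGFR, against 9.94 with the non-target hairpin and 10.01 with the empty vector. All SW620 knockdowns but NGFR thus lay above both of their controls there, and all SW480 knockdowns but CDK5 below both of theirs.

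**Figure D1:**
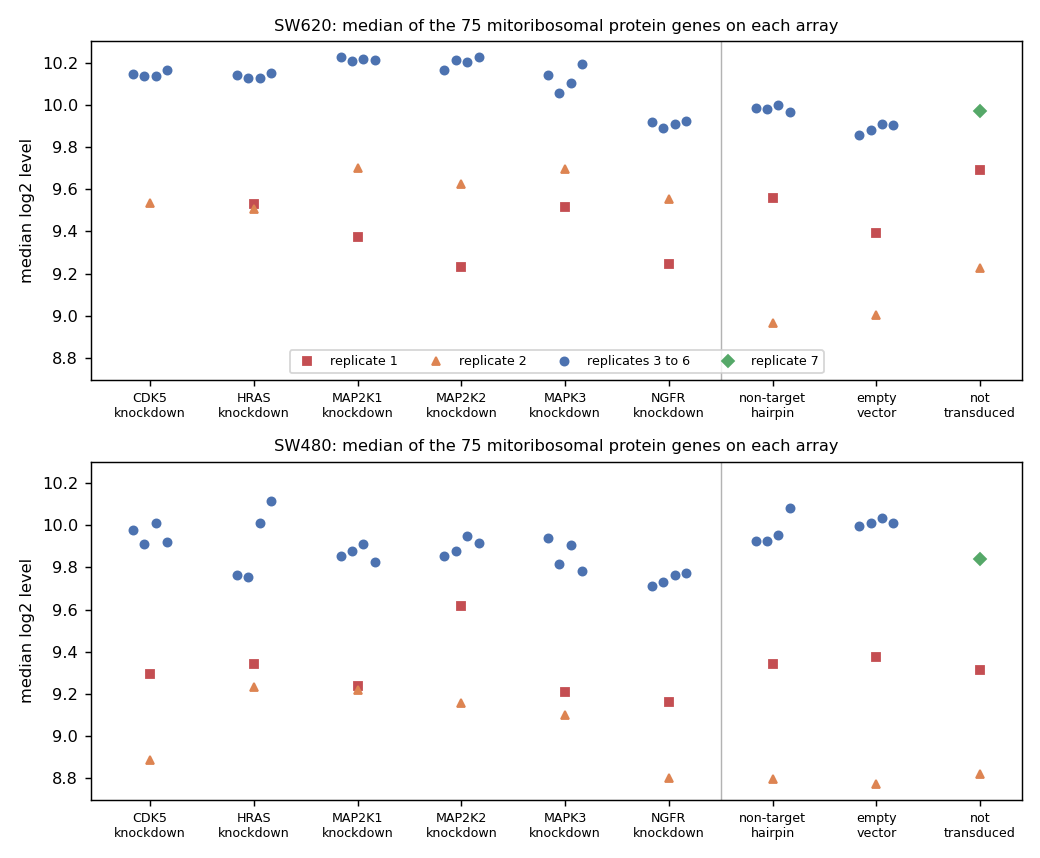
Median log2 level of the 75 mitochondrial ribosomal protein genes on each array, by treatment, for SW620 (top) and SW480 (bottom). Points are single arrays and markers give the label series. Replicates 3 to 6 lie between 9.86 and 10.23 in SW620, above every array of replicates 1 and 2 of that line.

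MRPL9, MRPL40 and MRPL13, proteins of the large subunit, followed the median of the set most closely over the 18 group means, with Pearson correlations of 0.937, 0.934 and 0.926. MRPS31, MRPS6 and MRPL41 ran against it, at -0.593, -0.592 and -0.591. Over the 16 groups that have replicates 3 to 6, and on those arrays alone, the same 6 genes gave 0.889, 0.903, 0.712, -0.806, -0.721 and -0.411. These correlations describe group means that share label series, and no test was made of them.

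In SW620, members rose more often than they fell in 5 of the 6 knockdowns, whereas in SW480, over all arrays, few members passed the threshold outside the HRAS and NGFR knockdowns. The test was limma over all 19777 genes, two-sided, with the label series as a covariate and Benjamini-Hochberg adjustment, and a gene was called at an adjusted p under 0.05. In the SW620 CDK5 knockdown 20 of 75 members were higher and 3 lower, where 10.6% and 13.4% of all genes were called higher and lower. In the SW620 HRAS knockdown 14 were higher and 5 lower, against 14.2% and 16.8% of all genes. In the SW620 MAP2K1 knockdown 24 were higher and 0 lower at this threshold, against 9.77% and 9.28% of all genes. At an unadjusted p under 0.05 the counts were 34 and 0, against 29.6% of all genes in both directions together. The SW620 MAP2K2 knockdown had 11 members higher and 3 lower, against 10.5% and 12.7%. The SW620 MAPK3 knockdown had 27 higher and 6 lower, against 13.9% and 15.9%. The SW620 NGFR knockdown had 5 higher and 11 lower, against 12.9% and 13.4%, and its 11 lower members are a share of 14.7%, close to that of all genes. As shares of the 75 members, the higher calls in SW620 were 26.7% for CDK5, 18.7% for HRAS, 32% for MAP2K1, 14.7% for MAP2K2, 36% for MAPK3 and 6.67% for NGFR.

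The median log2 difference over the 75 members in SW620 was 0.18 for the CDK5 knockdown, 0.19 for HRAS, 0.20 for MAP2K1, 0.21 for MAP2K2, 0.22 for MAPK3 and -0.00 for NGFR, while the median over all genes stayed between -0.01 and 0.01 in these 6 comparisons. The shift was largest on replicate 2, whose MAP2K1 and MAPK3 arrays were degraded. On the replicate 2 array alone, the median difference of the members from the SW620 vector controls of that label series was 0.48 for CDK5, 0.47 for HRAS, 0.81 for MAP2K1, 0.61 for MAP2K2, 0.78 for MAPK3 and 0.47 for NGFR. On replicate 1 it was 0.14 for HRAS, -0.14 for MAP2K1, -0.20 for MAP2K2, 0.11 for MAPK3 and -0.15 for NGFR, so its direction varied between knockdowns. In replicates 3 to 6 the medians were 0.14 for CDK5, 0.05 for HRAS, 0.17 for MAP2K1, 0.20 for MAP2K2, 0.16 for MAPK3 and -0.08 for NGFR. Against the medians over all arrays, HRAS dropped most, from 0.19 to 0.05, and MAP2K2 least, from 0.21 to 0.20. Between 43 and 59 of the 75 members lay above 0 there in the first 5 knockdowns, and 26 in the NGFR knockdown. Averaging replicates 3 with 4 and 5 with 6 before the fit left 0 calls for CDK5, 7 for HRAS, 4 for MAP2K1, 1 for MAP2K2, 24 for MAPK3 and 3 for NGFR in SW620. The counts also depended on which arrays were read. In replicates 3 to 6 alone, taken as separate arrays, 43 members were higher and 13 lower for CDK5, 32 and 19 for HRAS, 42 and 9 for MAP2K1, 41 and 11 for MAP2K2, 43 and 15 for MAPK3 and 14 and 31 for NGFR in SW620. In SW480 the same arrays gave 10 higher and 24 lower for CDK5, 12 and 43 for HRAS, 2 and 56 for MAP2K1, 2 and 42 for MAP2K2, 7 and 36 for MAPK3 and 4 and 59 for NGFR. The share of all genes called was not counted for these fits, so these counts cannot be read as particular to the members. Genes called higher in at least 5 SW620 knockdowns were 12.2% of all genes there, against 4.18% with all arrays. In replicates 1 and 2 alone limma called 0 members in each knockdown of SW620 and in each of SW480. Leaving out replicate 1 gave 35 calls for CDK5, 29 for HRAS, 41 for MAP2K1 and 37 for MAP2K2 in SW620, while leaving out replicate 3 gave 9, 11, 16 and 8 in the same order. Without the degraded arrays there were 38 for CDK5, 42 for HRAS and 36 for MAP2K2.

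**Figure D2:**
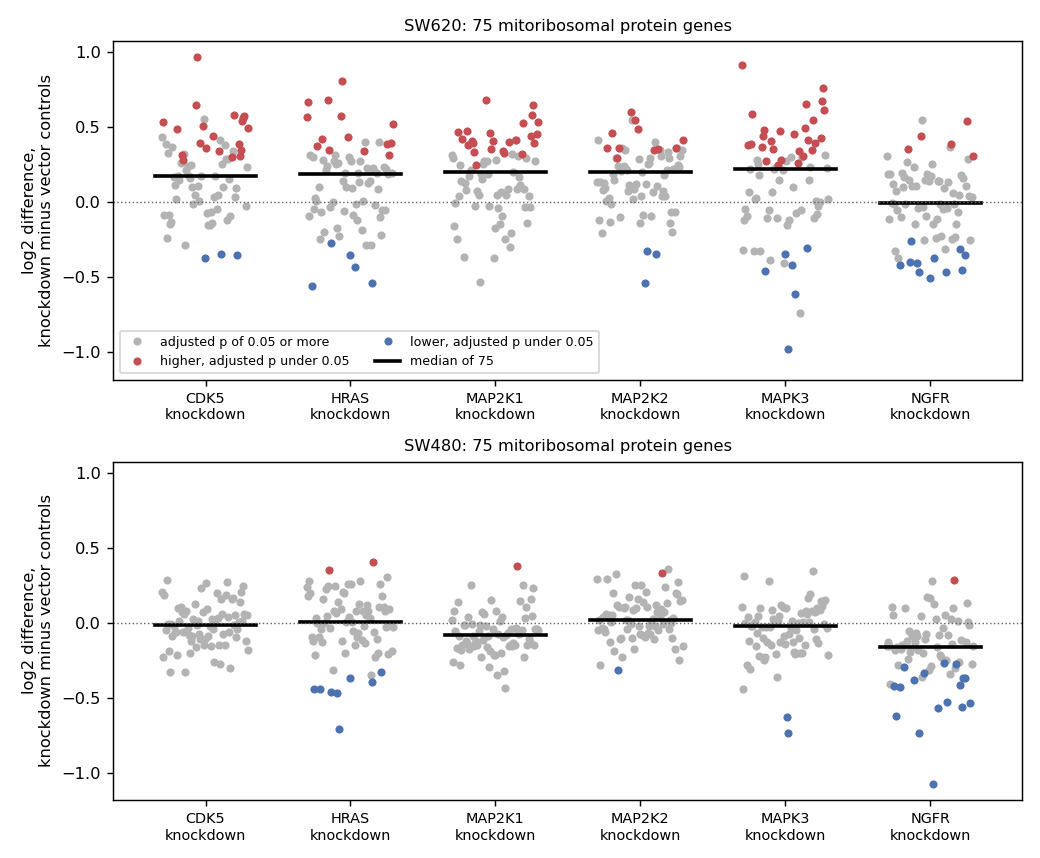
Log2 difference from the vector controls of the same line for each of the 75 members (points) in the 12 knockdown comparisons. Colour marks members called higher or lower at an adjusted p under 0.05 in limma, and the black bar is the median of the members, which is 0.18 to 0.22 in 5 SW620 knockdowns, -0.00 in the SW620 NGFR knockdown and -0.16 in the SW480 NGFR knockdown.

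Across the 6 SW620 knockdowns, which share their controls, 5 members were called higher in 5, a share of 6.67%, where 4.18% of all genes were called higher in at least 5. No member was called in all 6. The 5 were MRPL11, which forms the base of the stalk where elongation factors bind, MRPL20, which helps organise the ribosomal RNA of the large subunit, MRPL27, whose tail reaches towards the peptidyl transferase centre, MRPL49, a protein of the large subunit that bacteria lack, and MRPS15, a small subunit protein that binds ribosomal RNA early in assembly. A further 8 members were called higher in 4 SW620 knockdowns and lower in 0, and 21 members were called in none. The share of all genes was not counted for either, so these counts cannot be read as particular to the members. MRPL10, the protein that carries the stalk, was called lower in 4, the highest count in that direction, where 8.91% of all genes were called lower in at least 4. Which members recur depended on the arrays and the control. With arrays averaged in pairs, or with the non-target hairpin alone as the control, 0 members were called higher in at least 5. Without the degraded arrays they were MRPL14, MRPL20, MRPL22, MRPL23, MRPL49, MRPS11 and MRPS15, and without replicate 2 they were MRPL14, MRPL27 and MRPS11. In replicates 3 to 6 alone there were 23, or 30.7%, against 12.2% of all genes.

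The promoters of these 5 recurrent members and of MRPS35, the member with the lowest knockdown values, are shown. These genes did not all move alike, since MRPS35 was called higher in 0 SW620 knockdowns and lower in 1. Each window runs from 250 bases before to 50 bases after the gene's start. It is given 5′ to 3′ on the gene's strand, from RefSeq on GRCh38.p14. They are MRPL11 at chr11:66438799-66439098 on the minus strand, MRPL20 at chr1:1407244-1407543 on the minus strand, MRPL27 at chr17:50373135-50373434 on the minus strand, MRPL49 at chr11:65121933-65122232 on the plus strand (the first of its 2 windows), MRPS15 at chr1:36464335-36464634 on the minus strand and MRPS35 at chr12:27710582-27710881 on the plus strand. Capitals mark the ETS-type letters CCGGAAGT and the E-box letters CACGTG.
MRPL11: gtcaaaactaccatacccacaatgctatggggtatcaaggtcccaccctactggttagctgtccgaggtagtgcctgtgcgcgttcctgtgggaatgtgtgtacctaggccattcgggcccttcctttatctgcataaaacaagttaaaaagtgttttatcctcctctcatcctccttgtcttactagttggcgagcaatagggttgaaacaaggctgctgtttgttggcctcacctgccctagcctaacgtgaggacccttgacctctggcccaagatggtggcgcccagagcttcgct
MRPL20: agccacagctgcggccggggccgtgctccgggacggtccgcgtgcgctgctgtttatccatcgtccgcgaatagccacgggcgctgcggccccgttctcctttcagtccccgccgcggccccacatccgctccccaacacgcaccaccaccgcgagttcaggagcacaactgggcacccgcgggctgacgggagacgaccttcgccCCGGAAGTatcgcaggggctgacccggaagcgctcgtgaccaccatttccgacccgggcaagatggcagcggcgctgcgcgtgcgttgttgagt
MRPL27: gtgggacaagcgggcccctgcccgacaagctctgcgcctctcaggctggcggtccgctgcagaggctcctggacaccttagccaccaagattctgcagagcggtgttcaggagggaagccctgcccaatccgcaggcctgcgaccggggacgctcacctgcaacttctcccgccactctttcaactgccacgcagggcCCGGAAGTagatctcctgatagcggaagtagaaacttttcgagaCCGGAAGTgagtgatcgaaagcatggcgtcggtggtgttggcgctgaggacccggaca
MRPL49: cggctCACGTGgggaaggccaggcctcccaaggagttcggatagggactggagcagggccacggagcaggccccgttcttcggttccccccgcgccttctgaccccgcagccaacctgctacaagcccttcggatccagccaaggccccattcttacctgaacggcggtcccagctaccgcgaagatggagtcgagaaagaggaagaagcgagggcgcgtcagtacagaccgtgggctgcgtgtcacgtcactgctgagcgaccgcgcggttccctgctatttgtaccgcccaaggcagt
MRPS15: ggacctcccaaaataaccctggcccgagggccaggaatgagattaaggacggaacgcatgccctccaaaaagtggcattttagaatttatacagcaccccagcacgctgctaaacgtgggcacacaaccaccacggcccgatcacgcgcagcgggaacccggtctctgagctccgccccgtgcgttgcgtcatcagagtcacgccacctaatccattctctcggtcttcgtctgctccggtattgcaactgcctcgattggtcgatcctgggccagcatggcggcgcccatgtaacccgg
MRPS35: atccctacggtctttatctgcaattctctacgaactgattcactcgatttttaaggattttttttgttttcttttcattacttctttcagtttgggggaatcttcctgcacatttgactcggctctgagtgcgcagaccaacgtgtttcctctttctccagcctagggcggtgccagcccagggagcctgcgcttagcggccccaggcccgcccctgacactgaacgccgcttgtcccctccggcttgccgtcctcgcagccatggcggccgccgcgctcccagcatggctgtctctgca
CCGGAAGT occurred in the windows of MRPL20 and MRPL27, at base 207 of the first and at bases 199 and 243 of the second. CACGTG occurred in that of MRPL49, at base 6. The windows of MRPL11, MRPS15 and MRPS35 held neither.

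Windows were found for 67 of the 75 members, 83 windows of 300 bases in all, and 6 motifs were searched on both strands in them and in the 35116 windows of all genes. All members code for proteins, so the 22116 windows of other protein-coding genes are given too. CCGGAAGT, the core bound by ETS family factors such as GABPA, was in 15.7% of the members' windows, in 5.3% of the other coding windows and in 4.14% of all windows. AAGATGGCG, the motif of YY1, was in 14.5% of the members' windows, 2.36% of the other coding and 1.75% of all windows, and the motif of NRF1 in 12%, 7.37% and 5.78%. CACGTG, the E-box read by MYC, was in 10.8%, 8.33% and 7.26%, CCAAT in 33.7%, 34.7% and 34.6% and TATAAA in 3.61%, 9.49% and 11.5%. CCGGAAGT and AAGATGGCG cannot overlap, some other pairs can share end bases and were counted independently, and a match is a description of letters only.

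MRPL49 had the highest HRAS value of the 5. Its log2 level in the SW620 HRAS knockdown was 10.73, 11.05, 10.36, 10.38, 10.41 and 10.36 in replicates 1 to 6, against 10.42, 10.27, 9.73, 9.70, 9.72 and 9.69 with the non-target hairpin and 10.34, 10.31, 9.56, 9.58, 9.54 and 9.55 with the empty vector. Every HRAS knockdown array exceeded both controls of its own replicate number. The log2 difference was 0.68 ± 0.10 (SE, n = 6 against 12, limma adjusted p = 5.96e-08). MRPL49 also rose in the SW620 knockdowns of CDK5 (0.28), MAP2K1 (0.40), MAPK3 (0.45) and NGFR (0.36), and it missed the threshold for MAP2K2 (0.24, adjusted p = 0.0735). Its CDK5 call was lost when replicate 2 was left out (0.22, adjusted p = 0.0933).

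MRPL27 and MRPL11 rose by similar amounts in the same knockdowns. MRPL27 in the SW620 MAP2K1 knockdown measured 9.34, 10.10, 10.48, 10.45, 10.49 and 10.46 in replicates 1 to 6, against 9.26, 8.85, 9.95, 9.91, 9.90 and 9.92 with the non-target hairpin and 8.84, 8.82, 9.71, 9.80, 9.73 and 9.82 with the empty vector. Within each label series the knockdown lay above both controls, with the widest gap in the degraded replicate 2. The log2 difference of MRPL27 was 0.68 for MAP2K1 (adjusted p = 0.000423), 0.65 ± 0.16 for CDK5, 0.57 ± 0.15 for HRAS, 0.61 for MAP2K2 and 0.44 for NGFR, and it was 0.24 for MAPK3 (adjusted p = 0.241). MRPL11 in the SW620 MAP2K1 knockdown measured 9.11, 9.60, 10.30, 10.28, 10.31 and 10.31 in replicates 1 to 6, against 9.25, 8.75, 9.79, 9.74, 9.81 and 9.74 with the non-target hairpin and 9.34, 8.79, 9.56, 9.54, 9.54 and 9.56 with the empty vector. Replicate 1 of MRPL11 lay below both of its controls and the other 5 arrays above theirs. Its log2 difference was 0.53 for MAP2K1, 0.49 ± 0.13 for CDK5, 0.52 ± 0.12 for HRAS, 0.42 for MAP2K2 and 0.31 for NGFR (adjusted p = 0.0435), and 0.02 for MAPK3 (adjusted p = 0.905). Without replicate 2, the NGFR value of MRPL11 was 0.17 (adjusted p = 0.174).

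MRPL20 and MRPS15 depended more on replicate 2. MRPL20 in the SW620 MAPK3 knockdown had 10.44 as its lowest, 11.33 as its median and 11.86 as its highest level, against 9.77, 10.85 and 10.93 with the non-target hairpin and 9.76, 10.84 and 10.88 with the empty vector. The highest value was the degraded replicate 2. MRPL20 was called for CDK5 (0.55 ± 0.17), HRAS (0.39 ± 0.16), MAP2K1 (0.58), MAPK3 (0.68) and NGFR (0.55) and not for MAP2K2 (0.36, adjusted p = 0.0803), and without replicate 2 it missed the threshold for HRAS (0.30, adjusted p = 0.056) and MAP2K1 (0.33, adjusted p = 0.0591). MRPS15 had 11.12, 11.53 and 11.77 as its lowest, median and highest level in the SW620 MAP2K1 knockdown, against 10.37, 11.29 and 11.38 with the non-target hairpin and 10.54, 11.19 and 11.30 with the empty vector. Both lowest control values came from replicate 2. MRPS15 rose by 0.34 ± 0.11 for CDK5, 0.34 ± 0.10 for HRAS, 0.40 for MAP2K1, 0.35 for MAP2K2 and 0.34 for MAPK3, and was at 0.10 for NGFR (adjusted p = 0.513). Its CDK5 value without replicate 2 was 0.19 (adjusted p = 0.0829), and taking the mean of all probe sets of a gene ended its calls for CDK5, HRAS, MAP2K2 and MAPK3.

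**Figure D3:**
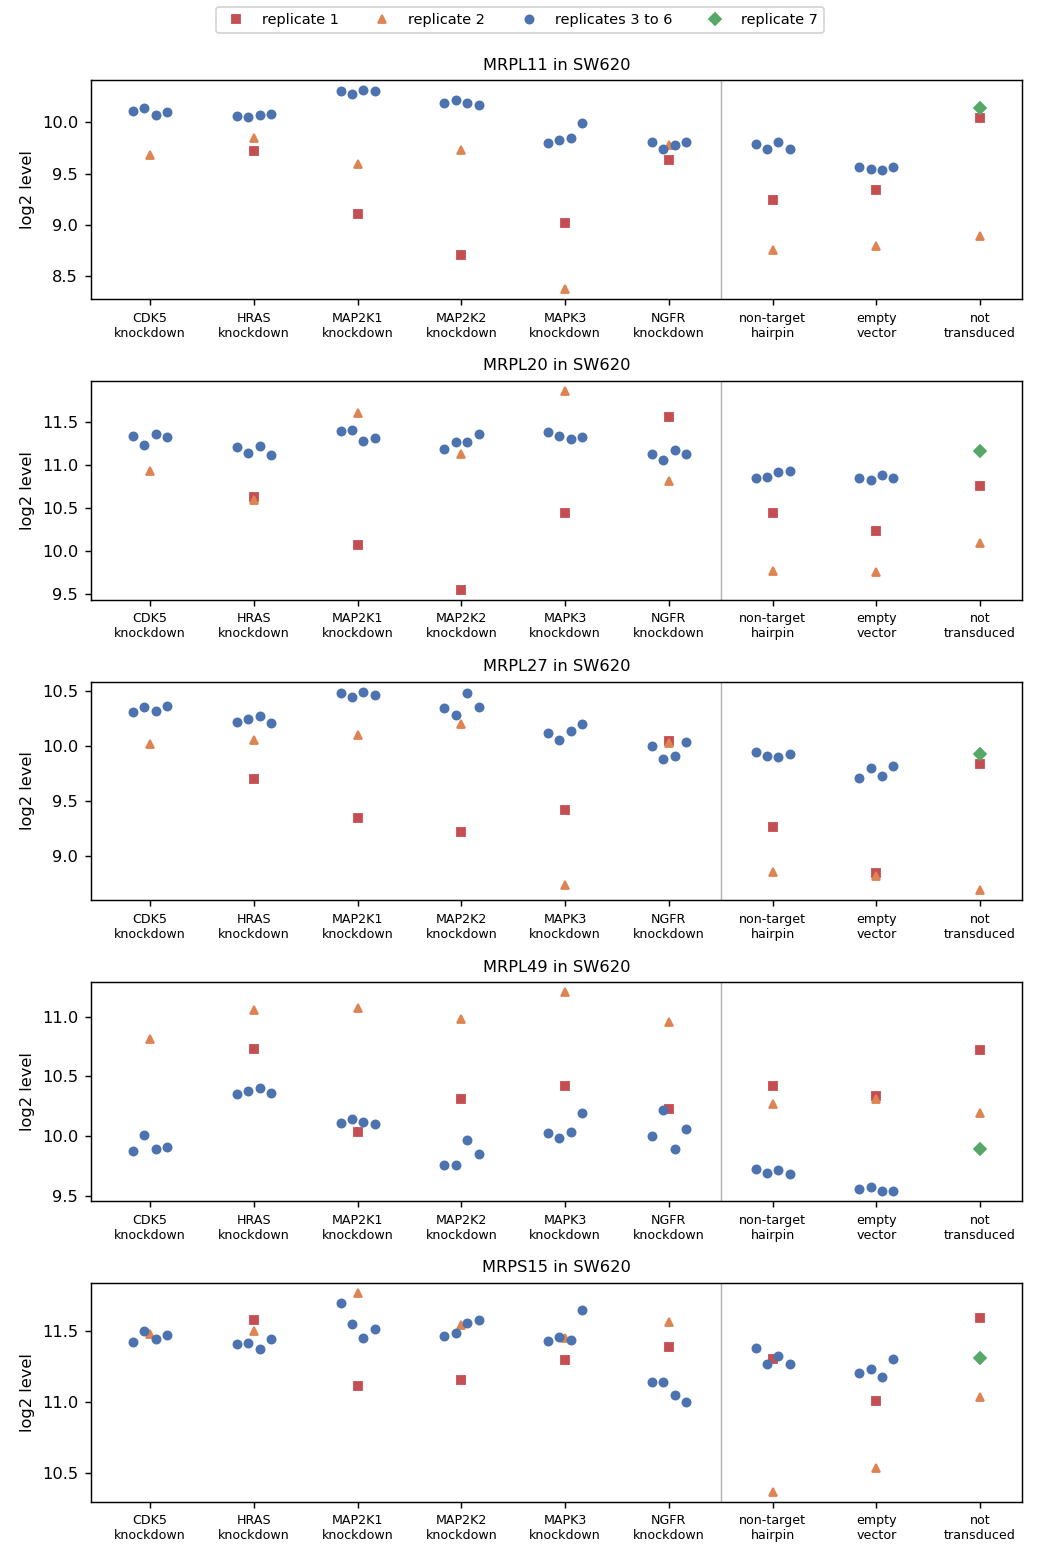
Log2 level of MRPL11, MRPL20, MRPL27, MRPL49 and MRPS15 on each SW620 array, by treatment. Points are single arrays and markers give the label series. MRPL49 in the HRAS knockdown lies at 10.36 to 11.05, against 9.69 to 10.42 with the non-target hairpin and 9.54 to 10.34 with the empty vector.

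Other members were called higher in fewer SW620 knockdowns. MRPL23, which lines the exit of the peptide tunnel, was higher by 0.97 ± 0.34 for CDK5 (adjusted p = 0.026) and 0.81 ± 0.31 for HRAS (adjusted p = 0.0402), but its 2 probe sets were called in opposite directions in the CDK5 knockdown. MRPL1, at the stalk where spent transfer RNA leaves, had 8.48, 10.40 and 10.52 as its lowest, median and highest level in the SW620 MAPK3 knockdown, against 8.38, 9.61 and 9.71 with the non-target hairpin and 8.28, 9.27 and 9.29 with the empty vector. Replicate 1 lay below its controls and the other 5 arrays above theirs, and the difference was 0.92 ± 0.20 (adjusted p = 0.000175). MRPL18, in the central protuberance of the large subunit, rose by 0.55 ± 0.14 for MAP2K2 (adjusted p = 0.00195). MRPL19 was higher by 0.76 ± 0.18 for MAPK3 and 0.65 ± 0.18 for MAP2K1, but both values leaned on a degraded replicate 2. Without degraded arrays MRPL19 was at 0.34 for MAP2K1 (adjusted p = 0.0653), and its 3 probe sets were called in opposite directions for MAPK3.

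MRPS35, a small subunit protein without a bacterial counterpart, had the lowest knockdown values of the set. In the SW620 MAPK3 knockdown it measured 9.23, 10.40, 10.16, 10.11, 10.13 and 10.21 in replicates 1 to 6, against 10.89, 10.71, 11.21, 11.11, 11.13 and 11.09 with the non-target hairpin and 11.03, 10.74, 11.11, 11.08, 11.06 and 11.11 with the empty vector. All 6 knockdown arrays lay below all 12 controls, and MRPS35 fell by 0.98 on the log2 scale (SE 0.10, adjusted p = 1.75e-12). In the SW480 MAPK3 knockdown it measured 10.65, 9.06, 9.84, 9.73, 9.90 and 9.67, against 9.89, 9.72, 10.82, 10.84, 10.85 and 10.86 with the non-target hairpin and 10.14, 9.75, 10.92, 10.94, 10.90 and 10.90 with the empty vector. Replicate 1, which held SW620 transcripts, lay above its own controls and the other 5 arrays below theirs, and MRPS35 fell by 0.74 on the log2 scale (SE 0.10, adjusted p = 5.68e-08).

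MRPS35 also fell in the NGFR knockdown of SW480, where it measured 9.16, 8.84, 9.64, 9.73, 9.66 and 9.76, below every control of the same label series. It fell by 1.08 on the log2 scale there (SE 0.10, adjusted p = 2.06e-14). In the NGFR knockdown of SW620 it measured 10.43, 10.46, 11.12, 11.02, 11.12 and 11.11, so replicates 3 to 6 overlapped the controls and replicates 1 and 2 lay below theirs. The difference from the SW620 controls was -0.15 (adjusted p = 0.306), and the difference between the lines in the NGFR response, SW620 minus SW480, was 0.93 for MRPS35.

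MRPL3, a protein of the large subunit near the peptidyl transferase centre, was lower in SW480 in both the HRAS and the NGFR knockdown. With HRAS it measured 9.34, 10.88, 10.84, 10.78, 11.39 and 11.43 in replicates 1 to 6, and with NGFR 10.06, 10.22, 11.07, 10.99, 11.05 and 11.10. The SW480 controls were at 11.14, 10.90, 11.71, 11.72, 11.73 and 11.69 with the non-target hairpin and at 11.30, 10.75, 11.72, 11.71, 11.72 and 11.77 with the empty vector. All NGFR arrays lay below the controls of their label series, and so did all HRAS arrays except replicate 2, which lay between its controls. The HRAS arrays of replicates 3 and 4, at 10.84 and 10.78, had GAPDH 3′ minus 5′ differences of 1.39 and 1.47, and those of replicates 5 and 6, at 11.39 and 11.43, had 0.41 and 0.32. MRPL3 fell by 0.71 (SE 0.13, adjusted p = 9.79e-06) with HRAS and by 0.74 (SE 0.13, adjusted p = 4.87e-06) with NGFR. In the SW620 NGFR knockdown it measured 8.86, 10.81, 11.44, 11.37, 11.42 and 11.39, against 11.10, 10.82, 11.61, 11.54, 11.58 and 11.54 with the non-target hairpin and 11.13, 10.79, 11.51, 11.52, 11.48 and 11.49 with the empty vector. There it was called lower by 0.46 (SE 0.13, adjusted p = 0.00493), a call that rested on the degraded replicate 1, since without degraded arrays the difference was -0.17 (adjusted p = 0.221).

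**Figure D4:**
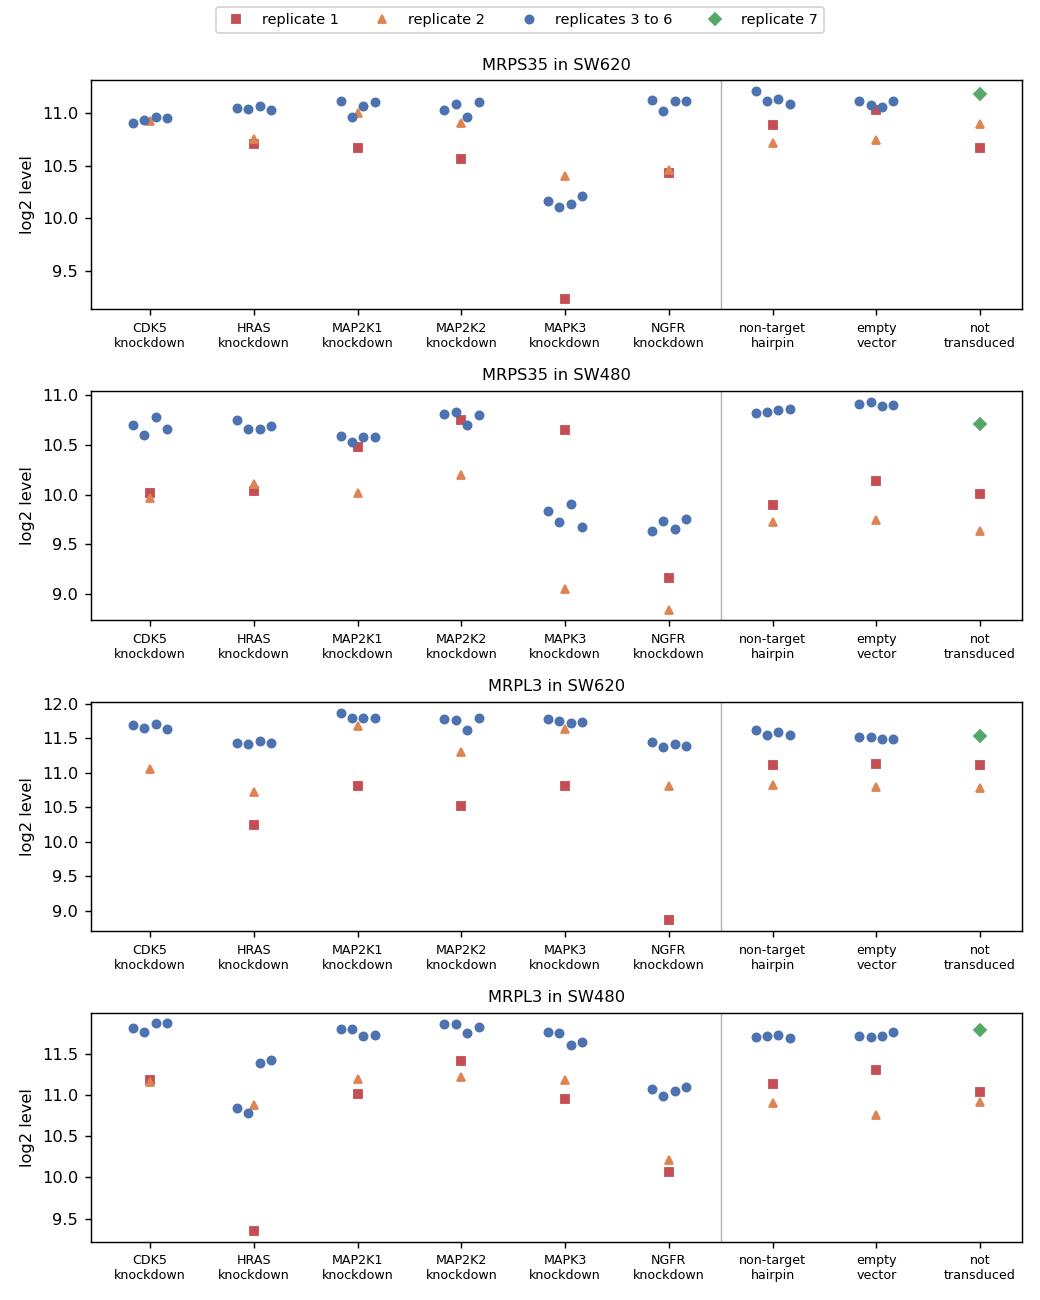
Log2 level of MRPS35 and MRPL3 on each array of both lines, by treatment. Points are single arrays and markers give the label series. MRPS35 lies at 9.23 to 10.40 in the SW620 MAPK3 knockdown, against 10.71 to 11.21 with the non-target hairpin, and at 8.84 to 9.76 in the SW480 NGFR knockdown, against 9.72 to 10.86 with the non-target hairpin.

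MRPL10 was the member called lower in most SW620 knockdowns. In the SW620 NGFR knockdown it had 8.10, 9.09 and 9.16 as its lowest, median and highest level, against 9.24, 9.57 and 9.61 with the non-target hairpin and 9.17, 9.44 and 9.52 with the empty vector. The groups did not overlap, and the lowest value was the degraded replicate 1. MRPL10 fell by 0.50 for NGFR (adjusted p = 3.46e-05), 0.37 for CDK5 (adjusted p = 0.00475), 0.35 for HRAS (adjusted p = 0.00252) and 0.34 for MAPK3 (adjusted p = 0.00378). In SW480 it fell by 0.37 for HRAS (adjusted p = 0.00232) and was at 0.17 for NGFR (adjusted p = 0.223).

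MRPS33, a protein of the small subunit that bacteria lack, had 8.89, 10.45 and 10.52 as its lowest, median and highest level in the SW620 MAP2K2 knockdown, against 10.56, 10.89 and 10.95 with the non-target hairpin and 10.50, 10.73 and 10.78 with the empty vector. Each array lay below the controls of its label series, with replicate 1 the lowest by far, and MRPS33 fell by 0.54 (SE 0.10, adjusted p = 3.38e-05). It also fell by 0.43 for HRAS and 0.37 for NGFR in SW620. MRPL48, which bacteria lack, had 9.22, 9.47 and 9.55 as its lowest, median and highest level in the SW620 HRAS knockdown, against 9.65, 9.998 and 10.04 with the non-target hairpin and 9.93, 9.99 and 10.13 with the empty vector. The groups did not overlap, and MRPL48 fell by 0.54 (SE 0.10, adjusted p = 1.27e-05). MRPS31, another small subunit protein that bacteria lack, fell by 0.56 (SE 0.13, adjusted p = 0.000248) in the same knockdown.

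Smaller SW620 falls were those of MRPL30 for CDK5, by 0.35 (SE 0.11, adjusted p = 0.0094), and of MRPS10 for MAP2K2, by 0.35 (SE 0.12, adjusted p = 0.0212). Both proteins have bacterial counterparts. MRPS2, a small subunit protein at the messenger RNA exit, was called lower by 0.61 for MAPK3 (SE 0.24, adjusted p = 0.0486), but the call came from the degraded replicate 2, and the difference without degraded arrays was 0.16.

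With all arrays, SW480 gave fewer calls than SW620 in each knockdown except that of NGFR, an order that turned for HRAS and MAP2K1 in replicates 3 to 6 alone. In the SW480 CDK5 knockdown limma called 0 of 75 members, where 8.05% of all genes were called. At an unadjusted p under 0.05 there were 10 members, against 20.1% of all genes. In the SW480 HRAS knockdown 2 members were higher and 8 lower, against 9.97% and 16.2% of all genes. The SW480 MAP2K1 knockdown had 1 higher and 0 lower, against 3.2% and 3.34%. It had 7 members at an unadjusted p under 0.05, against 18.9% of all genes. The SW480 MAP2K2 knockdown had 1 higher and 1 lower, against 2.07% and 3.09%. The SW480 MAPK3 knockdown had 0 higher and 2 lower, against 4.21% and 6.46%. For MAPK3, 10 members had an unadjusted p under 0.05, against 22.2% of all genes. The SW480 NGFR knockdown had 1 higher and 17 lower, against 13.1% and 10.9%. The share of members called lower there was 22.7%. The median differences over the members were -0.01 for CDK5, 0.01 for HRAS, -0.08 for MAP2K1, 0.02 for MAP2K2, -0.02 for MAPK3 and -0.16 for NGFR. Against the SW480 vector controls of the same label series, replicate 2 gave 0.17, 0.49, 0.48, 0.48, 0.36 and 0.09 in that order. Replicates 3 to 6 gave -0.04, -0.14, -0.18, -0.13, -0.12 and -0.27, and replicate 1 ran from -0.11 to 0.25. The rise on replicate 2 was thus seen in both lines.

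Of the members called in SW480, MRPL34, a small protein of the large subunit with a bacterial counterpart, had 8.74, 9.22 and 9.50 as its lowest, median and highest level in the HRAS knockdown, against 8.76, 9.86 and 10.02 with the non-target hairpin and 8.80, 9.75 and 9.80 with the empty vector. It fell by 0.47 (SE 0.11, adjusted p = 0.000352), with replicate 2 the single array above its controls. The HRAS arrays of SW480 also split among themselves, since the median of the 75 members was 9.76 and 9.75 in replicates 3 and 4 and 10.01 and 10.12 in replicates 5 and 6. The GAPDH 3′ minus 5′ difference moved with this split, at 1.39 and 1.47 in replicates 3 and 4 and at 0.41 and 0.32 in replicates 5 and 6, and its part in the HRAS values was not tested. MRPL46 and MRPL47 rose by 0.40 (adjusted p = 0.0123) and 0.35 (adjusted p = 0.0248) in that knockdown. MRPS6, at the platform of the small subunit, had 10.84, 11.30 and 11.47 as its lowest, median and highest level in the MAPK3 knockdown, against 11.14, 12.03 and 12.07 with the non-target hairpin and 11.71, 12.01 and 12.07 with the empty vector, and each array lay below the controls of its label series. MRPS6 fell by 0.63 (SE 0.14, adjusted p = 0.000553). MRPL44, which shares a fold with double-stranded RNA nucleases, was the single member that rose with NGFR, by 0.28 (SE 0.11, adjusted p = 0.0439).

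The SW480 calls of the MAP2K1 and MAP2K2 knockdowns moved with the arrays that held SW620 transcripts. MRPL48, which is higher in SW620 than in SW480, was called at 0.38 ± 0.10 for MAP2K1 (adjusted p = 0.00984) and at 0.33 for MAP2K2 (adjusted p = 0.0372). Without the 3 arrays that held SW620 transcripts it was at 0.27 (adjusted p = 0.0564) and 0.15 (adjusted p = 0.414). MRPL49 was lower by 0.32 for MAP2K2 in SW480 (adjusted p = 0.0466). Over the 6 SW480 knockdowns, 48 members were called in none, and the share of all genes called in none was not counted.

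The difference between the lines was tested as SW620 minus SW480 for each knockdown. It called 8 members higher and 2 lower for CDK5, where 6.5% of all genes were higher and 9.06% lower. For HRAS it called 4 higher and 0 lower, against 10.2% and 8.69% of all genes. For MAP2K1 the counts were 13 and 0, against 5.64% and 5.9%, and for MAP2K2 6 and 1, against 4.53% and 5.91%. For MAPK3 they were 15 and 0, against 8.17% and 8.83%, and for NGFR 13 and 2, against 10.5% and 13.3%. NGFR itself was called lower by its hairpin in SW480 and not in SW620. The counts with 0 lower came with 4, 1 and 3 members lower at an unadjusted p under 0.05 for HRAS, MAP2K1 and MAPK3 in limma. Of all genes 31.7%, 25.2% and 29.8% passed that level, both directions together. The members' median of this difference was 0.19 for CDK5, 0.13 for HRAS, 0.28 for MAP2K1, 0.14 for MAP2K2, 0.21 for MAPK3 and 0.18 for NGFR, while the median over all genes lay between -0.02 and 0.04. With all arrays the median member therefore stood higher in SW620 than in SW480, relative to the vector controls of each line. In replicates 1 and 2 alone this median was -0.17 for MAP2K2 and between 0.01 and 0.22 for the other 5. MRPL27 showed the largest such difference for CDK5 (0.81), MAP2K1 (0.71) and MAP2K2 (0.62). With the non-target hairpin alone as the control, the counts of calls were 3 for CDK5, 5 for MAPK3, 9 for NGFR and 0 for HRAS, MAP2K1 and MAP2K2. Averaging in pairs left 4 calls for NGFR and 0 for the other 5 knockdowns, and without the SW480 arrays that held SW620 transcripts MAPK3 had 7.

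The response was also compared between label series. Pooled over the lines, the effect in replicates 3 to 6 minus that in replicates 1 and 2 was higher in 0 members and lower in 18 for HRAS, where 2.36% of all genes were higher and 4.12% lower. For MAP2K1 it was higher in 1 and lower in 16, against 2.51% and 4.55% of all genes, and for MAP2K2 higher in 0 and lower in 14, against 2.66% and 6.12%. For MAPK3 the counts were 8 higher and 25 lower, against 6.4% and 11%, and for NGFR 1 higher and 20 lower, against 6.32% and 10.6%. For CDK5 limma called 0 members (1.15% of all genes were called), and 4 had an unadjusted p under 0.05, all lower. At that unadjusted level 0 members were higher for HRAS and 1 for MAP2K2. Of all genes 13.7% passed it for CDK5, 20.3% for HRAS and 20.6% for MAP2K2, both directions together. The members' medians were -0.11 for CDK5, -0.31 for HRAS, -0.26 for MAP2K1, -0.23 for MAP2K2, -0.26 for MAPK3 and -0.24 for NGFR, while the medians over all genes lay between -0.06 and -0.01. Leaving out 1 replicate at a time, these medians ran from -0.26 to 0.16 for CDK5, -0.60 to 0.07 for MAP2K1, -0.48 to 0.04 for MAP2K2 and -0.54 to 0.01 for MAPK3, so that their sign was not kept, and from -0.55 to -0.14 for HRAS and -0.43 to -0.02 for NGFR. With arrays averaged in pairs the calls were 0 for HRAS, 0 for MAP2K1, 2 for MAP2K2, 5 for MAPK3 and 3 for NGFR. Without the degraded arrays MAPK3 had 0 members higher and 16 lower and MAP2K1 0 higher and 11 lower, so the higher calls of both were lost. MRPS30, a protein of the large subunit despite its name, was among the largest of these differences for MAP2K2 (-1.001), MAPK3 (-0.90), HRAS (-0.80) and MAP2K1 (-0.75).

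Between the lines themselves, in the vector controls, 20 members were higher and 23 lower in SW620 than in SW480, where 23.5% of all genes were higher and 25.9% lower, and the members' median difference was -0.09. In replicates 1 and 2 alone 11 were higher and 2 lower and the median was 0.13, so the direction of the median turned there. Each line had 12 vector control arrays. MRPS27, an RNA-binding protein of the small subunit, had 9.35, 10.23 and 10.43 as its lowest, median and highest level in SW620, against 8.53, 9.52 and 9.58 in SW480, a difference of 0.88 ± 0.10 (adjusted p = 9.85e-13), although the lowest SW620 arrays overlapped SW480. MRPL48 had 9.65, 9.996 and 10.13 in SW620, against 8.53, 9.20 and 9.30 in SW480, and did not overlap between the lines (0.86 ± 0.09, adjusted p = 1.83e-14). MRPS16, MRPS30 and MRPL16 followed with differences of 0.84, 0.83 and 0.58.

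On the other side, MRPS6 had 9.66, 10.82 and 10.96 in SW620 as its lowest, median and highest level, against 11.14, 12.02 and 12.07 in SW480, without overlap (-1.32 ± 0.12, adjusted p = 5.74e-17). MRPL57, a small protein of the large subunit that bacteria lack, had 9.78, 10.74 and 10.80 in SW620, against 11.17, 11.74 and 11.93 in SW480, also without overlap (-1.22 ± 0.09, adjusted p = 3.88e-22). MRPL27, MRPS22 and MRPL41 followed with differences of -1.02, -0.91 and -0.85. MRPL27 was thus lower in the SW620 vector controls and rose in 5 of the 6 SW620 knockdowns. Both comparisons use the same SW620 vector control arrays, so they are not independent.

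**Figure D5:**
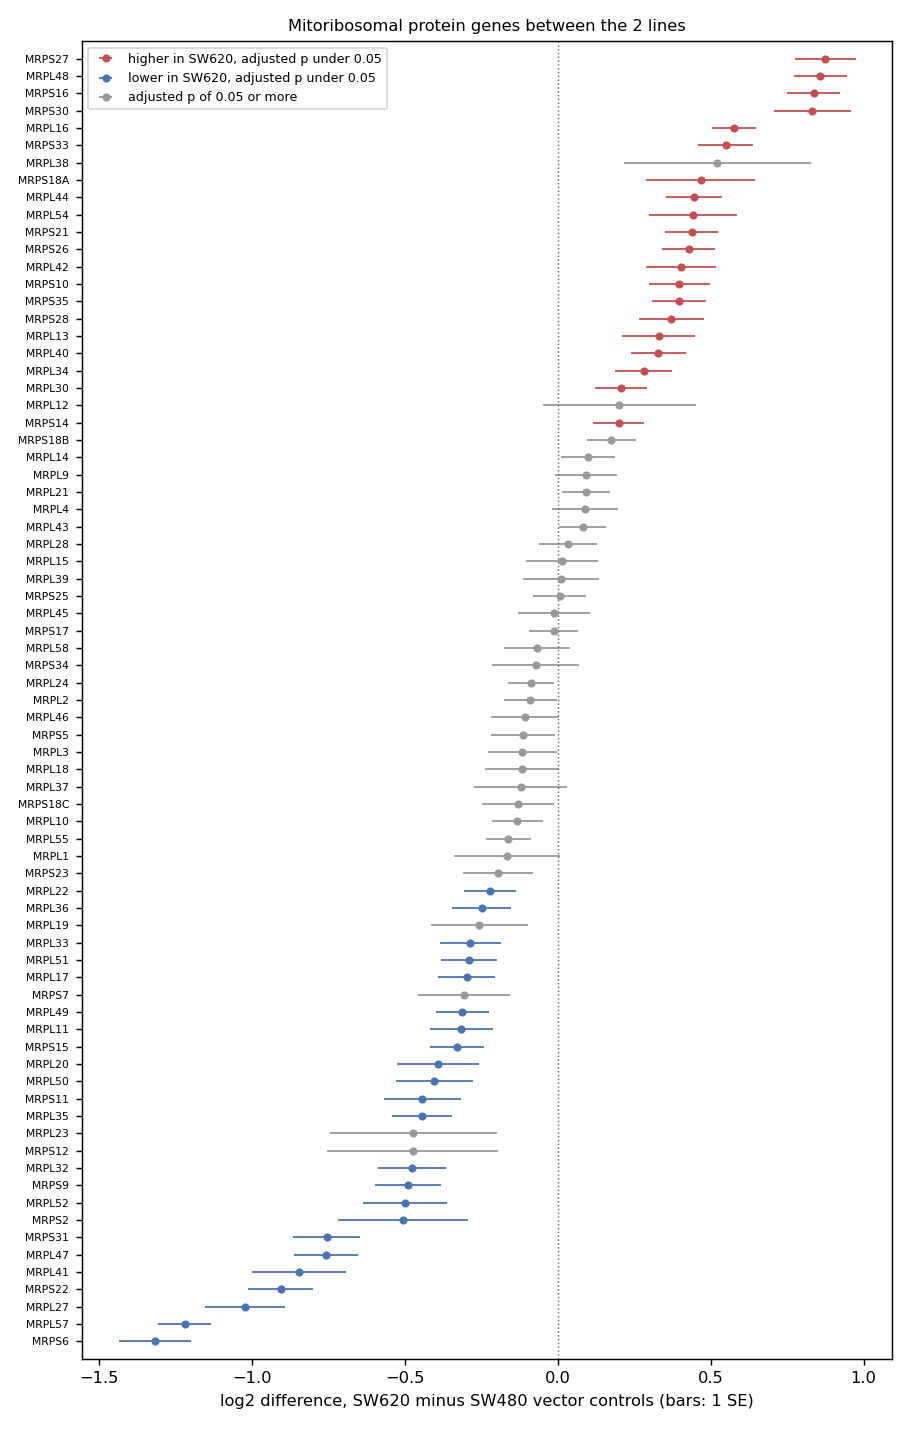
Log2 difference between SW620 and SW480 vector controls for the 75 members, ordered by size. Points are limma estimates from 12 arrays of each line, bars are 1 SE, and colour marks calls at an adjusted p under 0.05. The values run from MRPS6 at -1.32 to MRPS27 at 0.88.

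The controls were also compared with each other. Against non-transduced cells, the SW620 vector controls had 1 member higher and 0 lower, where 4.34% of all genes were higher and 1.54% lower. That member was MRPS31, with a difference of 0.70 ± 0.20 (adjusted p = 0.0226). In limma 7 members had an unadjusted p under 0.05, against 20.6% of all genes. MRPS31 also fell by 0.56 against these vector controls in the SW620 HRAS knockdown. In each line replicate 7 is the only array of its label series, so the series term takes it up. The comparison with non-transduced cells thus rests on their replicates 1 and 2. The members' median in SW620 ran from -0.28 to 0.16 when 1 replicate was left out. The members' median difference in this comparison was -0.06 in SW620 and 0.13 in SW480, against 0.05 and 0.02 over all genes. By series, the SW620 non-transduced array stood 0.15 above its vector controls in replicate 1 and 0.11 in replicate 2. The SW480 non-transduced array stood 0.01 above its vector controls in replicates 1 and 2. The series terms are fitted over all groups of a line, knockdowns included, so the fitted 0.13 is not a direct difference within these replicates. The SW480 vector controls had 0 members called, with 0% of all genes called. At an unadjusted p under 0.05 there were 4 members, against 5.85% of all genes. Non-target hairpin against empty vector gave 0 called members in SW620 and in SW480, where 0.00506% and 0.101% of all genes were called. In limma 1 and 0 members had an unadjusted p under 0.05, against 2.42% and 7.26% of all genes. In replicates 3 to 6 alone this comparison called 6 members in SW620 and 9 in SW480, where the share of all genes called was not counted.

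By subunit, 50 members belong to the large and 25 to the small subunit, with MRPS30 and MRPS18A counted in the large. In SW620, the median difference of large subunit members was 0.25 for CDK5, 0.20 for HRAS, 0.27 for MAP2K1, 0.22 for MAP2K2, 0.24 for MAPK3 and 0.05 for NGFR. That of small subunit members was 0.04, 0.03, 0.09, 0.08, 0.03 and -0.01 in the same order. Called higher were 15, 10, 18, 8, 21 and 5 of the 50 large subunit members, and 5, 4, 6, 3, 6 and 0 of the 25 small subunit members. Of all genes, 10.6%, 14.2%, 9.77%, 10.5%, 13.9% and 12.9% were called higher in that order. The sets differ in size, so their counts cannot be compared directly. The difference between the subunits was not tested.

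The 3 proteins of the stalk and its base did not move together in SW620. MRPL11 was higher in 5 knockdowns and MRPL10 lower in 4, while MRPL12, which binds both the stalk and mitochondrial RNA polymerase, was called in no knockdown of either line. MRPL12 had a wide SE of 0.29, and it was at 6.15 and 5.01 on the degraded replicate 2 arrays of MAP2K1 and MAPK3. The paralogs of one bacterial protein, MRPS18A in the large subunit and MRPS18B and MRPS18C in the small, also differed. In SW620, MRPS18C rose for HRAS (0.37, adjusted p = 0.0273), MAP2K1 (0.42, adjusted p = 0.0186), MAP2K2 (0.36, adjusted p = 0.0429) and MAPK3 (0.59, adjusted p = 0.00044). MRPS18A and MRPS18B were called in no knockdown.

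Probe sets of the same member were called in opposite directions in some comparisons. This held for MRPL19, MRPL23, MRPL30, MRPL43, MRPL50, MRPS25 and MRPS26, each in 1 to 3 comparisons, so the direction of these members depends on the probe set read.

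Related gene lists are read against all genes, of which 9.77% to 14.2% were higher and 9.28% to 16.8% lower in the 6 SW620 knockdowns. Of 60 cytosolic ribosomal protein genes, which build the ribosome of the cytosol, 17 were lower in SW620 for CDK5, 24 for HRAS, 3 for MAP2K1, 10 for MAP2K2, 25 for MAPK3 and 27 for NGFR, and between 1 and 4 were higher. Their median difference lay between -0.17 and -0.02. Of 74 genes for subunits of oxidative phosphorylation, 13 were higher and 1 lower for CDK5, 18 and 0 for MAP2K1, 17 and 0 for MAP2K2, 12 and 7 for MAPK3, 20 and 4 for NGFR and 3 and 9 for HRAS in SW620. In the SW480 HRAS knockdown 0 were higher and 23 lower. NDUFV3, a subunit of complex I, rose by 0.89 ± 0.11 in the SW620 MAPK3 knockdown (adjusted p = 8.75e-10), and NDUFA10, another, fell by 1.14 (SE 0.14, adjusted p = 5.55e-10) in the SW480 NGFR knockdown.

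Of 35 listed assembly and ribosomal RNA modification factors 24 were measured, and in SW620 between 3 and 8 were higher and between 1 and 5 lower. Among them MPV17L2, which binds the large subunit during assembly, rose by 0.72 ± 0.12 for MAP2K2, and YBEY, a ribosomal RNA endonuclease, fell by 0.85 (SE 0.12) for MAPK3. Of 4 measured mitochondrial ribosomal proteins with other symbols, DAP3, the GTP-binding protein of the small subunit, rose by 0.48 ± 0.08 for MAPK3 in SW620, and PTCD3 and CHCHD1 fell by 0.36 and 0.49 for NGFR in SW480. Of 15 mitochondrial translation factors, 1 to 4 were higher and 0 to 3 lower in SW620, and of 15 mitochondrial aminoacyl-tRNA synthetases, which charge transfer RNA, 1 to 4 were higher and 1 to 4 lower. Of 13 regulators, MYC fell in SW620 by 0.74 for CDK5, 0.77 for MAPK3 and 0.85 for NGFR, and YY1 rose by 0.37 for HRAS, 0.39 for MAP2K1 and 0.43 for MAPK3. ESRRA, a nuclear receptor that acts on respiratory genes, fell by 0.59 for NGFR in SW620 and by 0.48 in SW480. NRF1, GABPA and TFAM, classical regulators of these genes, were called in no knockdown.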

How the data were processed

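The authors deposited log2 expression levels per probe set, made with RMA per the submitters' processing notes, with no version given and with the joint or separate normalisation of the arrays not given in the sources used here. Probe sets were named through the platform annotation, with symbols updated by gene identifier for 41043 probe sets and kept for 54. Of 54675 probe sets, 41097 named 1 gene, and the probe set with the highest mean stood for each of 19777 genes. One limma model (version 3.58.1, R 4.3.3) held the whole set of arrays (group means, trend and robust moderation, label series within line as covariate). P-values were two-sided and adjusted by Benjamini-Hochberg over all genes in each comparison, with a threshold of 0.05. Groups came from the array titles; the third non-transduced array, replicate 7 by title, has another number in a further field.

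Named members were those with the 2 largest called changes each way in each knockdown, line difference and round difference, the 5 largest each way between lines, those called the same way in at least 5 of 6 knockdowns, and the extremes of level, SD and likeness. The members and lists were chosen with earlier results of these data known. Same-numbered arrays did not deviate together: their mean correlation was -0.0251 in SW480 (20 of 112 pairs above 0.1) and -0.00177 in SW620 (10 of 112), so the numbers do not pair the arrays. Alternatives were the control used, the probe set summary, a filter on dim genes, quantile normalisation, the covariate, averaged arrays and arrays left out. Replicates 1 and 2 alone, and leaving out all 6 arrays that stood apart, were chosen after seeing the data. Promoter sequences came from RefSeq.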

Additional observations from a re-analysis of the deposited data

Results flagged for a closer look

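Of 74 groups of arrays tested for a lone array far from the others, 32 held one. Chance gives about 1 in 20 where arrays are exchangeable, but here replicates 3 to 6 lie close together, replicates 1 and 2 are other label series and the members were named for large changes, so that rate does not apply. Most of these lone arrays were replicate 2 or replicate 1, set against the vector controls of their own label series. The median level of the members in the SW620 CDK5 knockdown had replicate 2 apart at 9.54, with the next array at 10.14. MRPS15 had replicate 2 apart in all 6 SW620 knockdowns, 1.03 above its controls for CDK5, 1.05 for HRAS, 1.32 for MAP2K1, 1.09 for MAP2K2, 1.00 for MAPK3 and 1.11 for NGFR. MRPL11 had replicate 2 apart at 0.90 for CDK5, 1.08 for HRAS and 1.00 for NGFR, and replicate 1 apart at -0.19 for MAP2K1 and -0.59 for MAP2K2. MRPL20 had replicate 2 apart at 1.17 for CDK5, 0.83 for HRAS and 2.10 for MAPK3, the last on a degraded array. MRPL27 had replicate 2 apart at 1.18 for CDK5, 1.22 for HRAS, 1.27 for MAP2K1 and -0.10 for MAPK3.

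Further lone arrays in SW620 were replicate 1 at 0.17 for MRPL23, 0.35 for MRPL49 and -0.70 for MRPL48 with HRAS, at -0.34 for MRPL49 with MAP2K1, at -1.64 for MRPS33 with MAP2K2 and, on the degraded NGFR array, at -1.21 for MRPL10 and -2.26 for MRPL3. Replicate 2 stood apart at 0.89 for MRPL18 with MAP2K2 and, on the degraded arrays, at 2.62 for MRPL19 with MAP2K1, 3.06 for MRPL19 with MAPK3 and -4.36 for MRPS2 with MAPK3. In SW480, replicate 1 stood apart at 0.63 for MRPS35 with MAPK3, on an array that held SW620 transcripts, and at -1.16 for MRPL3 with NGFR.

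The effect of a knockdown differed between the lines, SW620 minus SW480, in 10 members for CDK5, 4 for HRAS, 13 for MAP2K1, 7 for MAP2K2, 15 for MAPK3 and 15 for NGFR, by the limma test of the difference. In the same order, 3076, 3733, 2282, 2064, 3363 and 4694 of all 19777 genes were called. Shares of all genes by direction are given above. The named members were, for CDK5, MRPL27 (0.81), MRPS7 (0.77), MRPS31 (-0.52) and MRPS10 (-0.50). For HRAS they were MRPL11 (0.55) and MRPS11 (0.55), for MAP2K1 MRPL27 (0.71) and MRPS22 (0.65), and for MAP2K2 MRPL27 (0.62), MRPL11 (0.57) and MRPS33 (-0.45). For MAPK3 they were MRPL1 (0.81) and MRPL47 (0.73), and for NGFR MRPS35 (0.93), MRPL52 (0.71), MRPL10 (-0.67) and MRPS33 (-0.50).

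The effect also differed between replicates 3 to 6 and replicates 1 and 2, in 18 members for HRAS, 17 for MAP2K1, 14 for MAP2K2, 33 for MAPK3 and 21 for NGFR. Of all 19777 genes, 1282, 1396, 1738, 3436 and 3353 were called in that order. The named members were MRPS6 (-0.85) and MRPS30 (-0.80) for HRAS, and MRPL23 (1.28), MRPL39 (-0.81) and MRPS30 (-0.75) for MAP2K1. For MAP2K2 they were MRPS30 (-1.001) and MRPL46 (-0.82), and for MAPK3 MRPL23 (1.91), MRPL38 (1.49), MRPS30 (-0.90) and MRPL39 (-0.88). Without the degraded arrays MRPL23 was at 0.78 for MAPK3 (adjusted p = 0.0669) and 0.81 for MAP2K1 (adjusted p = 0.0839), and MRPL38 at 0.12 for MAPK3 (adjusted p = 0.697), so these calls were lost. For NGFR the named members were MRPL3 (0.61), MRPL27 (-0.94) and MRPL20 (-0.83). Which difference between the label series moves with these values was not tested.

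Probe sets outside the 75 members also carried calls. The pseudogene MRPL45P2 was higher in SW480 by 0.23 for HRAS and 0.15 for NGFR, at a dim mean level of 3.06. The probe set that names both MRPL51 and SPTLC1 was higher in SW620 by 0.56 for CDK5, 0.36 for HRAS, 0.32 for MAP2K1 and 0.52 for MAP2K2, and it does not separate these 2 genes.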

How the results depend on the processing

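Counts of called members that moved by more than 1.5 times were as follows. The share of all genes called was not counted for these settings, apart from genes higher in at least 5 SW620 knockdowns. With replicate number as a block in place of label series (same-numbered arrays of replicates 3 to 6 did not pair), they were 0 for MAP2K2 in SW480, 2 for the HRAS line difference and members higher in at least 5 SW620 knockdowns and 27 for the lines. With no term for label series, they were 1 for CDK5 in SW620, HRAS in SW480, MAP2K1 in SW620, NGFR in SW620, the MAP2K1 line difference and members higher in at least 5 SW620 knockdowns, 5 for HRAS in SW620, 0 for MAP2K1 in SW480, MAP2K2 in SW480, the CDK5 line difference, the HRAS line difference, the MAP2K2 line difference, the MAPK3 line difference and vector against non-transduced in SW620, 2 for MAP2K2 in SW620, NGFR in SW480 and the NGFR line difference, 4 for MAPK3 in SW620 and 19 for the lines. With the empty vector alone as control, they were 0 for MAP2K1 in SW480 and MAP2K2 in SW480, 6 for the CDK5 line difference and the MAP2K1 round difference, 10 for the HRAS round difference, 8 for the MAP2K2 round difference and 15 for the MAPK3 round difference. With the non-target hairpin alone as control, they were 13 for CDK5 in SW620 and MAP2K1 in SW620, 11 for HRAS in SW620, 1 for MAP2K2 in SW480, 8 for MAP2K2 in SW620 and the MAP2K1 round difference, 3 for the CDK5 line difference, 0 for the HRAS line difference, the MAP2K1 line difference, the MAP2K2 line difference and members higher in at least 5 SW620 knockdowns, 5 for the MAPK3 line difference, 9 for the NGFR line difference and the HRAS round difference, 6 for the MAP2K2 round difference and 12 for the NGFR round difference. With the mean of all probe sets, they were 1 for CDK5 in SW480, 4 for MAP2K1 in SW480, 8 for the HRAS line difference, 2 for vector against non-transduced in SW620, 11 for the MAP2K1 round difference and 12 for the NGFR round difference. With dim genes left out, they were 2 for MAP2K1 in SW480 and 8 for members higher in at least 5 SW620 knockdowns. After a second quantile normalisation, they were 3 for CDK5 in SW480, 17 for HRAS in SW480, 2 for MAP2K1 in SW480, 16 for the CDK5 line difference and 8 for members higher in at least 5 SW620 knockdowns. With arrays 3, 4 and 5, 6 averaged in pairs, they were 0 for CDK5 in SW620, MAP2K1 in SW480, MAP2K2 in SW480, the CDK5 line difference, the HRAS line difference, the MAP2K1 line difference, the MAP2K2 line difference, the MAPK3 line difference, vector against non-transduced in SW620, the HRAS round difference, the MAP2K1 round difference and members higher in at least 5 SW620 knockdowns, 5 for HRAS in SW480 and the MAPK3 round difference, 7 for HRAS in SW620, 4 for MAP2K1 in SW620 and the NGFR line difference, 1 for MAP2K2 in SW620 and MAPK3 in SW480, 6 for NGFR in SW480, 3 for NGFR in SW620 and the NGFR round difference, 21 for the lines and 2 for the MAP2K2 round difference. In replicates 3 to 6 only, they were 34 for CDK5 in SW480, 56 for CDK5 in SW620, 55 for HRAS in SW480, 51 for HRAS in SW620, MAP2K1 in SW620 and the MAP2K2 line difference, 58 for MAP2K1 in SW480 and MAPK3 in SW620, 44 for MAP2K2 in SW480, 52 for MAP2K2 in SW620, 43 for MAPK3 in SW480, 63 for NGFR in SW480, 45 for NGFR in SW620, 46 for the CDK5 line difference, 54 for the HRAS line difference, 59 for the MAP2K1 line difference, 48 for the MAPK3 line difference, 49 for the NGFR line difference, 9 for non-target against empty vector in SW480, 6 for non-target against empty vector in SW620 and 23 for members higher in at least 5 SW620 knockdowns. Without the degraded arrays, they were 9 for CDK5 in SW480, 38 for CDK5 in SW620, 20 for HRAS in SW480, 42 for HRAS in SW620, 5 for MAP2K1 in SW480 and MAP2K2 in SW480, 36 for MAP2K2 in SW620, 10 for MAPK3 in SW480, 29 for NGFR in SW480, 24 for the CDK5 line difference, 19 for the HRAS line difference, 16 for the MAP2K2 line difference and the MAPK3 round difference, 4 for vector against non-transduced in SW620, 3 for the CDK5 round difference, 31 for the HRAS round difference, 11 for the MAP2K1 round difference and 25 for the MAP2K2 round difference. Without the SW480 arrays that held SW620 transcripts, they were 1 for CDK5 in SW480 and the CDK5 round difference, 2 for MAP2K1 in SW480, 7 for the MAPK3 line difference and 28 for the MAP2K1 round difference. In replicates 1 and 2 only, they were 0 for CDK5 in SW620, HRAS in SW480, HRAS in SW620, MAP2K1 in SW480, MAP2K1 in SW620, MAP2K2 in SW480, MAP2K2 in SW620, MAPK3 in SW480, MAPK3 in SW620, NGFR in SW480, NGFR in SW620, the CDK5 line difference, the HRAS line difference, the MAP2K1 line difference, the MAP2K2 line difference, the MAPK3 line difference, the NGFR line difference, vector against non-transduced in SW620 and members higher in at least 5 SW620 knockdowns and 13 for the lines. Without all 6 arrays that stood apart, they were 11 for CDK5 in SW480, 42 for CDK5 in SW620, 22 for HRAS in SW480 and the MAP2K2 round difference, 44 for HRAS in SW620, 6 for MAP2K1 in SW480 and MAPK3 in SW480, 4 for MAP2K2 in SW480 and the CDK5 round difference, 40 for MAP2K2 in SW620, 34 for NGFR in SW480, 28 for the CDK5 line difference, 24 for the HRAS line difference and the NGFR line difference, 19 for the MAP2K2 line difference, 7 for vector against non-transduced in SW620, 36 for the HRAS round difference, 9 for the MAP2K1 round difference, 15 for the MAPK3 round difference and 12 for members higher in at least 5 SW620 knockdowns. The round differences have no value within single series, nor without the series term, which sets them against the controls. With 1 vector control group, the other group was left out of their fit. Leaving out 1 replicate number at a time gave ranges of 0 to 8 for CDK5 in SW480, 9 to 35 for CDK5 in SW620, 8 to 21 for HRAS in SW480, 10 to 30 for HRAS in SW620, 1 to 23 for MAP2K1 in SW480, 16 to 41 for MAP2K1 in SW620, 0 to 9 for MAP2K2 in SW480, 7 to 37 for MAP2K2 in SW620, 2 to 20 for MAPK3 in SW480, 11 to 35 for NGFR in SW480, 10 to 29 for NGFR in SW620, 2 to 22 for the CDK5 line difference, 0 to 24 for the HRAS line difference, 1 to 30 for the MAP2K1 line difference, 0 to 18 for the MAP2K2 line difference, 3 to 29 for the MAPK3 line difference, 8 to 24 for the NGFR line difference, 0 to 20 for vector against non-transduced in SW620, 0 to 24 for the CDK5 round difference, 5 to 53 for the HRAS round difference, 6 to 58 for the MAP2K1 round difference, 6 to 50 for the MAP2K2 round difference, 19 to 68 for the MAPK3 round difference, 14 to 45 for the NGFR round difference and 1 to 15 for members higher in at least 5 SW620 knockdowns. Direction reversed for few named values. MRPL11 in the SW620 MAPK3 knockdown (0.02, not called) was -0.037 with the non-target control, -0.0115 after quantile normalisation, -0.0667 in pairs and -0.34 in replicates 1 and 2, and ranged from -0.0394 to 0.11 when 1 replicate was left out. MRPL19 in the SW620 MAPK3 knockdown was -0.0087 with the mean of all probe sets. MRPS15 in the SW620 NGFR knockdown (not called) was -0.10 with that mean and -0.19 in replicates 3 to 6, and ranged from -0.103 to 0.176. MRPS2 in the SW620 MAPK3 knockdown was 0.23 in replicates 3 to 6 and 0.16 without degraded arrays or without all 6, and ranged from -0.791 to 0.137. MRPL49 in the SW480 MAP2K2 knockdown was 0.27, and MRPS10 in the SW620 MAP2K2 knockdown 0.049, in replicates 1 and 2. In the round differences, MRPL38 with MAPK3 was -0.14 without all 6 arrays that stood apart, and MRPL3 with NGFR ranged from -0.0942 to 1.31 when 1 replicate was left out. Over 100 named member results and all settings, 1483 values kept direction and side of the threshold, 420 kept direction but lost the threshold, 13 gained it and 19 reversed. The causes were not tested.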
